A study of Homo sapiens with 18 samples.

Results

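The oligoadenylate synthetase genes OAS1, OAS2 and OAS3, their relative OASL, the MX dynamin-like GTPase genes MX1 and MX2, and RSAD2 were examined by RNA sequencing of EA.hy926 cells. The members were chosen by gene symbol, and all 7 were found among the 62754 genes of the count matrix. EA.hy926 is a human endothelial line made by fusing umbilical vein endothelial cells with the A549 lung carcinoma line. Cells received transfection reagent without siRNA (Mock), a non-targeting siRNA (siNT) or a pool of siRNAs against ELMO1, an engulfment and cell motility adaptor (siELMO1), the siRNAs at 10 nM. Collection followed 48 h after transfection, unstimulated (0 h), or once poly(I:C), a synthetic double-stranded RNA that activates TLR3, had been present at 1 μg/ml for 24 h. Every condition, 6 in all, was sequenced as 3 libraries, described as biological replicates of this single line. All groups, the controls included, went through the transfection step, so none shows untouched cells. No unstimulated group was collected at the later time, so poly(I:C) and 24 h longer in culture cannot be told apart. The siNT and siELMO1 groups differ in siRNA sequence as well as in target.

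These genes encode effectors of the interferon response. OAS1, OAS2 and OAS3 bind double-stranded RNA and make short oligoadenylates, the second messengers of an antiviral RNA decay pathway. OASL lacks that enzyme activity and is known for its interplay with the sensor RIG-I. MX1 (MxA) and MX2 (MxB) bind viral nucleoprotein complexes or capsids. RSAD2 (viperin) makes a modified nucleotide that stops chain growth by viral polymerases. In most cells the genes are held low and rise when interferon activates the ISGF3 complex, which binds an interferon-stimulated response element in their promoters. Double-stranded RNA can also raise some of them directly through interferon regulatory factors.

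Positions are those of GRCh38 with GENCODE annotation. OAS1 (chromosome 12, 112905856 to 112933219), OAS3 (112938051 to 112976460) and OAS2 (112978395 to 113011723) stand side by side on the plus strand. OASL is on the minus strand of the same chromosome at 121017763 to 121039246. MX2 (chromosome 21, 41361999 to 41409393) and MX1 (41420020 to 41470071) are neighbours on the plus strand. RSAD2 is on the plus strand of chromosome 2, at 6865557 to 6898239. Annotated genes on the opposite strand overlap OAS1, OAS2, OAS3, MX1 and RSAD2, but none of them held more than 9 counts in a library.

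RefSeq promoter windows of 300 bases, 250 before and 50 after a transcription start, were given for 4 of the genes: OAS1, OAS3, MX1 and RSAD2. OAS2, OASL and MX2 had no entry. The core of the interferon-stimulated response element, GAAANNGAAA, and the related spacing GAAANGAAA were searched on both strands, and matches of the 2 may overlap each other. At least 1 of them was found in 7 of the 7 windows of these genes, against 6.40% of all 35116 promoter windows (3.57% for GAAANNGAAA and 3.12% for GAAANGAAA). The motifs were chosen with the promoters in view, and a match is a description of the letters, not a binding site. Stretches around matches before the start are shown because these members rose together. Matches are in capitals, and a TTTC spelling is the motif on the minus strand. The stretches also fall inside the annotated span of their gene, since some transcripts begin farther upstream. Whether they lie in exons was not computed.
OAS1, chr12:112906932-112906961: cctcccttctgagGAAACGAAAccaacagc
OAS3, chr12:112938319-112938348: ctagaaaGAAACGAAACTGAAAgcagggaa
OAS3, chr12:112938444-112938473: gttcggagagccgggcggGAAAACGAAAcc
RSAD2, RefSeq start at 6865885, chr2:6865815-6865844: gcgttgcgggGAAACGAAAgccggaggccc
RSAD2, downstream start, chr2:6877622-6877651: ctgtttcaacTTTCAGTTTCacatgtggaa
MX1, chr21:41420528-41420557: gcaatttgactTTTCCTTTCtggaaaccag
MX1, chr21:41426116-41426145: aggagctaggTTTCGTTTCtgcgcccggag
MX1, chr21:41426161-41426190: ggtctgtgagTTTCATTTCttcgcggcgcg
MX1, chr21:41431844-41431873: ggtcactctgTTTCTCTTTCcgtgaataaa
All are GRCh38.p14, plus strand. The OAS1 match began 17 bases before the start and the nearer OAS3 match 12 bases before it. In the OAS3 stretch farther upstream, both spacings overlapped in a single run. The RSAD2 window at the RefSeq start at 6865885 held 4 matches of the shorter spacing, each with the same letters, and 1 is shown. The window at the downstream start held 1 match of the longer spacing. The MX1 window with its start at 41420558 held 3 matches, and 1 of them, before the start, is shown. The others, of both spacings, overlapped each other after the start.

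Libraries held 40.4 to 73.9 M estimated counts. ELMO1 was at 2.66 to 3.32 CPM (counts scaled to library size with TMM factors) in the Mock and siNT libraries at 0 h and at 0.299 to 0.419 CPM in siELMO1. At 24 h it was at 1.52 to 3.59 CPM in the controls and 0.155 to 0.360 CPM in siELMO1. No library thus went against its label as siELMO1 or control. The ELMO1 level cannot tell Mock from siNT, or 0 h from 24 h. Of the endothelial markers, CDH5, TIE1, EGFL7 and PECAM1 had the highest levels at 24 h and EMCN held at most 5 counts; of the epithelial ones, KRT7, KRT18 and KRT8 were expressed and CDH1 held 0 counts. Leukocyte markers (among them PTPRC, ITGAM, CD14 and CD3E) reached at most 29 counts. Some markers differed between groups. In siELMO1 against Mock at 24 h 8 of 9 tested endothelial and 3 of 4 tested epithelial markers were called higher and 0 lower (all genes: 21.6% higher and 22.0% lower). At 0 h 6 of 9 and 3 of 4 were higher and 0 lower (all genes: 27.9% and 22.4%). In siNT against Mock at 24 h 4 of 9 endothelial markers were higher and 3 lower, and 2 of 4 epithelial markers higher and 1 lower (all genes: 25.2% and 24.9%). With poly(I:C) in Mock 4 of 4 epithelial markers were lower (all genes: 29.6%). Their part in the results was not tested. In siELMO1 at 0 h, replicate 1 stood apart from replicates 2 and 3. The chi-square per gene was 70.9 and 79.1 for its pairs, against at most 29.2 for any other pair of replicates. Replicates 2 and 3 had 4.03% and 3.95% of counts in mitochondrially encoded genes, and the other libraries 1.31% to 2.42%. Whether this plays a part in the 0 h results was not tested. Values without replicates 2 and 3 are given only where a 0 h call changed, and for OAS3 as a pass of the threshold. Bulk RNA cannot tell fewer responding cells from less RNA per cell.

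Before stimulation the oligoadenylate synthetases were already expressed, and MX2 and RSAD2 were near the limit of counting. OAS1 was at 33.3 ± 0.41 CPM (SD, n = 3) in Mock, and OAS3 at 51.3 ± 1.5 CPM. OAS2 was at 6.01 ± 0.81 CPM and OASL at 7.21 ± 0.36 CPM in the same libraries. These 4 genes held 122 to 5034 counts in a library at 0 h. MX1 held 83 to 104 counts in the Mock libraries at 0 h. RSAD2 held 8 to 46 counts over the 9 libraries at 0 h, and MX2 between 0 and 19. A count of 0 in these libraries allows up to 0.0406 to 0.0743 CPM (3 counts, counting error only, each count taken as a separate read pair). The library totals exceeded the numbers of paired-end reads that the study reports. A count thus need not be a separate read pair, and these limits may be too low. The few counts of MX2 and RSAD2 may likewise rest on fewer read pairs. The 7 genes together took 0.0105% ± 0.00015 of the counts in Mock at 0 h and 0.593% ± 0.028 at 24 h.

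**Figure D1:**
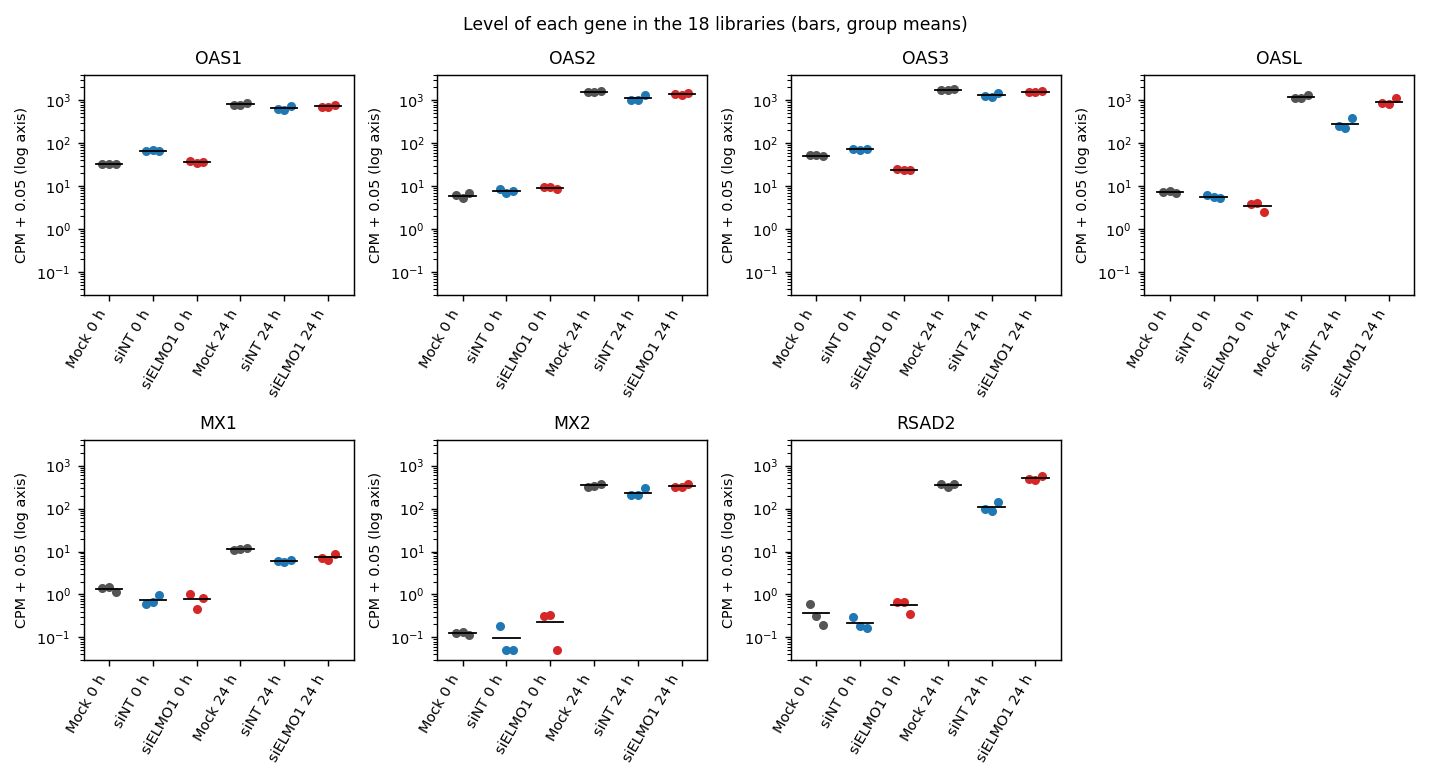
CPM plus 0.05 on a log axis for each gene in the 18 libraries; points are libraries, coloured by transfection, and bars are group means of 3. In each panel the 24 h libraries sit above the 0 h libraries. The siNT libraries at 24 h are the lowest of the 24 h points in OAS2, OAS3, OASL, MX2 and RSAD2.

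Per transcript length (TPM computed from the transcript counts), the order of the genes differed between 0 h and 24 h. In Mock at 0 h it was OAS1 at 34.7 TPM, OAS3 at 19.9, OASL at 6.81, OAS2 at 5.02, MX1 at 0.851, RSAD2 at 0.161 and MX2 at 0.0506, and no neighbours in that order overlapped in range. In siNT and siELMO1 at 0 h OAS1 and OAS3 also led, with no overlap between them. In Mock at 24 h OASL led with 1268 TPM, followed by OAS2 at 798, OAS1 at 717, OAS3 at 625, RSAD2 at 239.7, MX2 at 236 and MX1 at 7.82. There only RSAD2 and MX2 overlapped. In siNT at 24 h the order was OAS1 (599.8 TPM), OAS2 (549.6), OAS3 (476), OASL (252), MX2 (162), RSAD2 (75.0) and MX1 (4.48). OAS1, OAS2 and OAS3 overlapped as neighbours there, as did OASL and MX2. In siELMO1 at 24 h OASL (830.3 TPM) was again the leading gene, overlapping OAS1 (708), which overlapped OAS2 (695), and RSAD2 (354) stood above MX2 (235) in every library. At 24 h MX1 was the lowest of the 7 genes in every condition.

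All 7 genes were higher after 24 h of poly(I:C) than at 0 h in each transfection. Called higher at an adjusted p under 0.05 were 7 of 7 in Mock, where 30.7% of the 15167 genes tested were called higher and 29.6% lower. It was 7 of 7 in siNT, beside 28.6% higher and 25.2% lower, and 7 of 7 in siELMO1, beside 28.0% higher and 26.9% lower. The median log2 fold change of the 7 genes was 7.37 in Mock, 5.67 in siNT and 7.25 in siELMO1, with a median over all genes of 0.0066 in Mock. In none of the 7 genes did the 24 h libraries overlap the 0 h libraries of the same transfection. The share of all genes without overlap was not computed.

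MX2, whose product acts against HIV-1 and herpesviruses, rose the most. Its Mock libraries held 5, 6 and 5 counts at 0 h and 17182, 19977 and 22259 counts at 24 h. The siNT libraries went from 9, 0 and 0 counts to 10710, 11334 and 17042 counts. Over all transfections the libraries moved from at most 19 to at least 10710 counts. The log2 fold change was 12.16 (SE 0.32) in Mock and 12.25 (SE 0.35) in siNT (adjusted p = 1.5e-15 and 7.2e-15, edgeR), and 10.82 (SE 0.30) in siELMO1 (adjusted p = 4.0e-15, edgeR). It ranked 8, 3 and 14 from the top among all genes tested in Mock, siNT and siELMO1. With so few counts at 0 h the size of these changes is uncertain, and in siNT it ran from 11.66 to 16.79 over the alternatives.

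RSAD2 followed, from 37, 19 and 11 counts in Mock at 0 h to 19838, 19155 and 22180 at 24 h. Its log2 fold change was 10.17 (SE 0.28, adjusted p = 2.2e-15, edgeR) in Mock, 9.32 (SE 0.30, adjusted p = 4.7e-14, edgeR) in siNT and 9.94 (SE 0.27, adjusted p = 2.9e-15, edgeR) in siELMO1. OAS2 rose by 8.06 (SE 0.14), 7.17 (SE 0.13) and 7.25 (SE 0.13) on the log2 scale in Mock, siNT and siELMO1 (adjusted p = 7.3e-18, 5.6e-17 and 2.2e-17, edgeR). OASL rose by 7.37 (SE 0.22), 5.67 (SE 0.21) and 8.09 (SE 0.23) in the same order (adjusted p = 5.8e-15, 2.5e-13 and 5.1e-15, edgeR). Of these 4 genes the smallest change was that of OASL in siNT, at 50.8-fold.

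OAS1, OAS3 and MX1 had the smaller changes in Mock. OAS1 rose 24.3-fold in Mock, 9.70-fold in siNT and 19.7-fold in siELMO1, with log2 fold changes of 4.60, 3.28 and 4.30 (SE 0.079, 0.074 and 0.078). OAS3, the synthetase that responds to long double-stranded RNA, rose 34.4-fold, 18.1-fold and 65.6-fold, with log2 fold changes of 5.11, 4.18 and 6.04 (SE 0.077, 0.073 and 0.081). For both genes the largest adjusted p of the 3 was 3.8e-16 (edgeR, OAS1 in siNT). MX1 rose the least, 8.91-fold, 8.71-fold and 10.0-fold (log2 fold changes 3.15, 3.12 and 3.32, SE 0.23, 0.24 and 0.24). Its adjusted p was 1.6e-09, 5.6e-09 and 2.2e-09 (edgeR). At 24 h MX1 held 305 to 701 counts in a library, where MX2 held at least 10710.

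**Figure D2:**
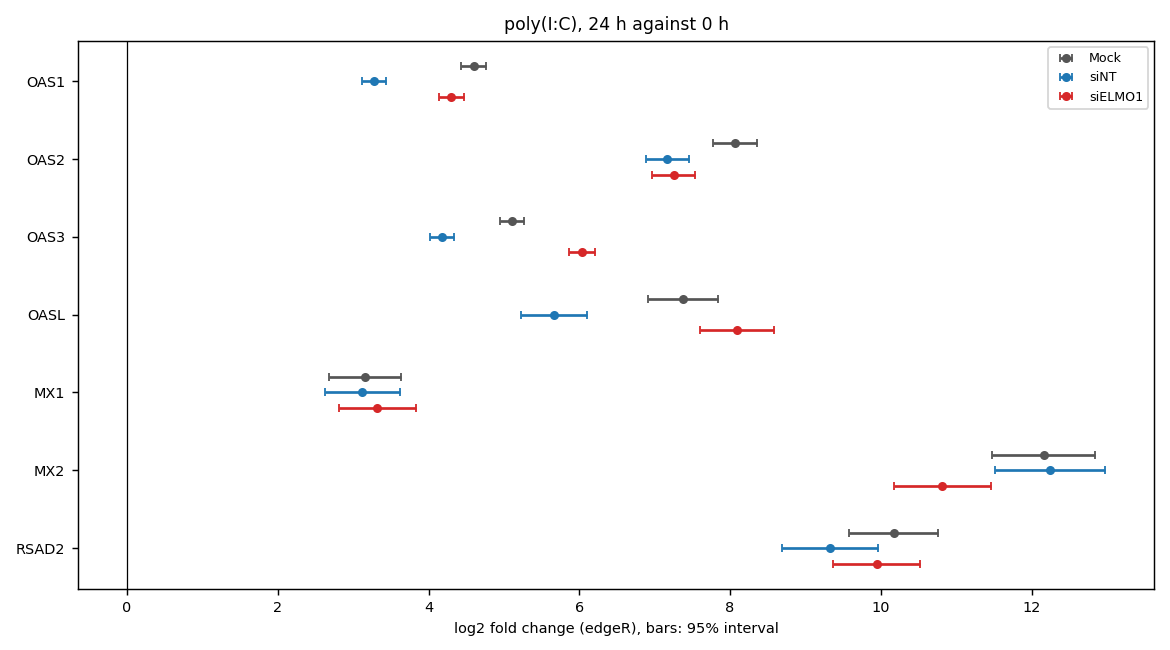
Log2 fold change from 0 h to 24 h of poly(I:C) for each gene (x axis) in Mock, siNT and siELMO1; bars are 95% intervals from the edgeR fit. The lowest point is MX1 in siNT at 3.12, MX2 is the farthest right, and OAS1 and OASL in siNT lie left of their Mock points.

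At 0 h some members differed between transfections. In siNT against Mock 3 of the 7 genes were called higher and 1 lower (all genes: 27.6% higher and 24.0% lower). In siELMO1 against Mock 1 was called higher and 3 lower (all genes: 27.9% and 22.4%). In siELMO1 against siNT 1 was called higher and 3 lower (all genes: 31.3% in each direction). These shares are close to those of all genes, and what follows describes the individual members.

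OAS1 was at 33.5, 32.8 and 33.5 CPM in the Mock libraries and at 66.8, 69.8 and 65.8 CPM in siNT. In siELMO1 it was at 37.6, 35.2 and 37.5 CPM. The lowest siNT library, at 65.8 CPM, thus lay above the highest other library, at 37.6 CPM. OAS1 differed by 1.02 on the log2 scale (SE 0.070, adjusted p = 2.1e-09, edgeR) in siNT against Mock and −0.87 (SE 0.070, adjusted p = 5.9e-09, edgeR) in siELMO1 against siNT. Between siELMO1 and Mock the difference was 0.15 with an interval of −0.0036 to 0.29 (adjusted p = 0.098, edgeR).

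OAS3 separated all 3 transfections. It was at 52.3, 52.0 and 49.5 CPM with Mock transfection, at 75.2, 69.4 and 73.1 CPM with siNT, and at 25.2, 24.0 and 23.4 CPM with siELMO1. No libraries of different groups overlapped, with siNT highest and siELMO1 lowest. Its siNT level exceeded Mock by 0.50 on the log2 scale (SE 0.066, adjusted p = 5.6e-06, edgeR). The log2 fold change was −1.08 (SE 0.068, adjusted p = 4.2e-10, edgeR) in siELMO1 against Mock, and −1.58 (SE 0.069, adjusted p = 1.7e-12, edgeR) in siELMO1 against siNT. Both siELMO1 differences passed the threshold in 16 of 16 alternative fits, including the fit without replicates 2 and 3.

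OASL, the relative without synthetase activity, was also lowest in siELMO1. It was at 7.14, 7.60 and 6.88 CPM for Mock, 6.07, 5.56 and 5.27 CPM for siNT, and 3.89, 3.97 and 2.44 CPM for siELMO1. Against Mock the siELMO1 libraries differed by −1.07 on the log2 scale (SE 0.22, adjusted p = 5.0e-04, edgeR). The difference from siNT was −0.71 (SE 0.22, adjusted p = 0.010, edgeR). The latter was −0.52 and no longer called without replicate 3 (adjusted p = 0.061, edgeR), −0.52 without replicates 2 and 3 (adjusted p = 0.17, edgeR) and −0.73 under limma-voom (adjusted p = 0.16). Between siNT and Mock the log2 difference was −0.36 (adjusted p = 0.15, edgeR), although the libraries did not overlap.

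OAS2 showed another order, with siELMO1 highest. It was at 6.07, 5.17 and 6.78 CPM for Mock, 8.79, 6.78 and 7.84 CPM for siNT, and 9.53, 9.47 and 8.49 CPM for siELMO1. OAS2 exceeded Mock by 0.61 on the log2 scale in siELMO1 (SE 0.12, adjusted p = 4.0e-04, edgeR). In siNT against Mock it was 0.38 (SE 0.12, adjusted p = 0.014, edgeR), but the libraries overlapped, and the call was lost without Mock replicate 1 or 2 (adjusted p = 0.052 and 0.13, edgeR), without siNT replicate 1 (adjusted p = 0.083) and under limma-voom (adjusted p = 0.10).

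MX1 was lower with either siRNA, at 89, 104 and 83 counts in Mock, 36, 37 and 61 in siNT, and 71, 16 and 39 in siELMO1. MX1 differed from Mock by −0.89 on the log2 scale in siNT (SE 0.24, adjusted p = 0.0047, edgeR) and −0.79 in siELMO1 (SE 0.24, adjusted p = 0.011, edgeR). Without siELMO1 replicate 2, the shallowest library, the latter was −0.53 (adjusted p = 0.052, edgeR), and without replicates 2 and 3 it was −0.44 (adjusted p = 0.23, edgeR); in a fit of the compared libraries alone it was −0.85 and not called (adjusted p = 0.078, edgeR). RSAD2 was the single gene called higher in siELMO1 than in siNT at 0 h, at 46, 24 and 15 counts against 17, 8 and 8. This difference, 1.60 on the log2 scale (SE 0.61, adjusted p = 0.029, edgeR), lost its call in 4 of the 6 fits that left out a library of these groups, with siNT replicate 2 or 3 or siELMO1 replicate 1 or 2 removed (adjusted p from 0.064 to 0.16, edgeR). It was also not called under limma-voom (adjusted p = 0.27) or without siELMO1 replicates 2 and 3 (adjusted p = 0.058, edgeR). For MX2, with 0 to 19 counts, no difference at 0 h was called (adjusted p = 0.68, 0.26 and 0.11, edgeR). Only without siNT replicate 1 or siELMO1 replicate 3 was MX2 called higher in siELMO1 than in siNT (adjusted p = 0.016 and 0.027, edgeR).

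**Figure D3:**
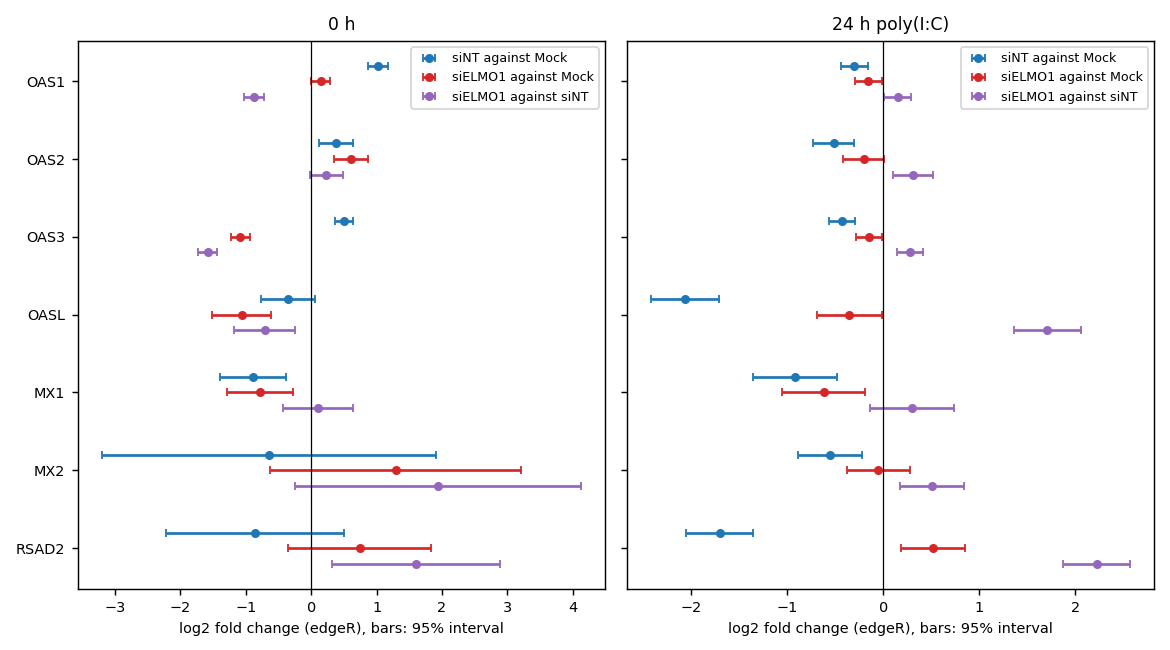
Log2 fold changes between transfections at 0 h (left) and at 24 h of poly(I:C) (right) for each gene; bars are 95% intervals from the edgeR fit and the vertical line marks no difference. At 0 h OAS3 lies at 0.50, −1.08 and −1.58, and at 24 h OASL and RSAD2 in siNT against Mock lie at −2.06 and −1.71.

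After 24 h of poly(I:C) the 7 genes were lower in siNT than in Mock. Called lower were 7 of 7 and called higher 0 (all genes: 24.9% lower and 25.2% higher), with a median log2 fold change of −0.56. No libraries of the 2 groups overlapped in any of the 7 genes (share over all genes not computed). Between siELMO1 and Mock, 1 gene was called higher and 1 lower (all genes: 21.6% and 22.0%), and 5 were not called; under limma-voom 4 were lower. In siELMO1 against siNT 5 were called higher and 0 lower (all genes: 26.0% and 26.5%). The comparisons share the siNT or Mock libraries and are not independent of each other.

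OASL differed most from Mock in siNT. The Mock libraries held 1139, 1133 and 1315 CPM, the siNT libraries 251, 225 and 382 CPM, and the siELMO1 libraries 856, 818 and 1134 CPM. The siNT libraries lay far below the other groups, while siELMO1 replicate 3 reached the level of Mock replicates 1 and 2. OASL differed by −2.06 on the log2 scale (SE 0.17, adjusted p = 2.8e-08, edgeR) in siNT against Mock and 1.71 (SE 0.17, adjusted p = 1.8e-07, edgeR) in siELMO1 against siNT. Between siELMO1 and Mock it was −0.35 with an interval of −0.69 to −0.012 (adjusted p = 0.088, edgeR).

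RSAD2 separated all 3 groups, with siELMO1 above Mock and siNT below it. The Mock libraries held 378, 317 and 379.9 CPM, the siNT libraries 96.3, 90.3 and 143 CPM, and the siELMO1 libraries 495, 458 and 587 CPM. RSAD2 differed by −1.71 on the log2 scale (SE 0.16, adjusted p = 2.0e-07, edgeR) in siNT against Mock and 2.22 (SE 0.17, adjusted p = 7.9e-09, edgeR) in siELMO1 against siNT. It was the single gene of the 7 that was called higher in siELMO1 than in Mock, by 0.52 (SE 0.16, adjusted p = 0.014, edgeR). That difference was 0.44 without Mock replicate 2 and 0.41 without siELMO1 replicate 3 (adjusted p = 0.065 and 0.066, edgeR), and 0.53 by DESeq2 (adjusted p = 0.26), none of which passed the threshold.

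The 3 synthetases differed less. OAS1 levels were 774, 798 and 852 CPM for Mock, 613, 604 and 747 CPM for siNT, and 710.3, 695 and 770.1 CPM for siELMO1. In siNT against Mock the log2 fold change was −0.30 for OAS1 (SE 0.067, adjusted p = 0.0012, edgeR), −0.52 for OAS2 (SE 0.10, adjusted p = 3.4e-04, edgeR) and −0.43 for OAS3 (SE 0.064, adjusted p = 2.8e-05, edgeR). The siELMO1 level exceeded siNT by 0.31 for OAS2 (SE 0.10, adjusted p = 0.014, edgeR) and 0.27 for OAS3 (SE 0.064, adjusted p = 0.0016, edgeR), and 0.15 for OAS1, which was not called (adjusted p = 0.075, edgeR). The call of OAS2 was lost without siNT replicate 1 or 2 or siELMO1 replicate 3 (adjusted p = 0.073, 0.081 and 0.052, edgeR). Between siELMO1 and Mock the 3 genes had log2 differences of −0.16, −0.21 and −0.15 and were not called (adjusted p = 0.071, 0.11 and 0.063, edgeR). All siELMO1 libraries lay below all Mock libraries in these 3 genes (share over all genes not computed).

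Of the MX genes, MX1 was highest in Mock, at 10.6, 11.6 and 11.9 CPM against 5.83, 5.75 and 6.42 CPM for siNT and 7.16, 6.34 and 8.72 CPM for siELMO1. MX1 differed from Mock by −0.92 in siNT (SE 0.21, adjusted p = 0.0013, edgeR) and by −0.62 in siELMO1 (SE 0.21, adjusted p = 0.021, edgeR), on the log2 scale. The siELMO1 call was lost without Mock replicate 2 or 3 or siELMO1 replicate 1 or 2 (adjusted p from 0.057 to 0.091, edgeR). MX2 levels were 327, 331 and 381 CPM for Mock, 205, 203 and 298 CPM for siNT, and 314, 320.2 and 369 CPM for siELMO1. MX2 in siNT differed from Mock by −0.56 (SE 0.16, adjusted p = 0.0070, edgeR), which DESeq2 did not call (adjusted p = 0.59), and siELMO1 differed from siNT by 0.51 (SE 0.16, adjusted p = 0.012, edgeR). The latter was not called by DESeq2 (adjusted p = 0.61) or without siNT replicate 1 or 2 (adjusted p = 0.065 and 0.066, edgeR). In siELMO1 against Mock, MX2 differed by −0.052 with an interval of −0.38 to 0.28 (adjusted p = 0.82, edgeR).

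The change over the 24 h itself was compared between transfections in the same fit, as a difference of log2 fold changes. Against Mock, 4 of the 7 genes were called lower in siNT and 0 higher (all genes: 16.0% lower and 15.0% higher). These were OAS1 at −1.32 (SE 0.097, adjusted p = 2.7e-08, edgeR), OAS2 at −0.90 (SE 0.16, adjusted p = 2.8e-04, edgeR), OAS3 at −0.93 (SE 0.092, adjusted p = 8.0e-07, edgeR) and OASL at −1.71 (SE 0.26, adjusted p = 7.0e-05, edgeR). For OAS1 and OAS3 the difference held a higher level at 0 h and a lower level at 24 h in siNT. For OASL the levels at 0 h differed by −0.36, which was not called, and those at 24 h by −2.06. MX1, with a difference of −0.032 (SE 0.33, adjusted p = 0.96, edgeR), was lower in siNT at both times.

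In siELMO1 against Mock, 1 gene was called higher and 2 lower (all genes: 13.8% higher and 14.6% lower). OAS3 rose more in siELMO1, by 0.93 (SE 0.093, adjusted p = 1.0e-06, edgeR), from its lower level at 0 h to a level at 24 h that was not called different. OAS2 rose less, by −0.82 (SE 0.16, adjusted p = 8.3e-04, edgeR), and OAS1 by −0.30 (SE 0.097, adjusted p = 0.028, edgeR). The OAS1 call was lost without Mock 0 h replicate 1, 2 or 3, siELMO1 0 h replicate 3, Mock 24 h replicate 3 or siELMO1 24 h replicate 1 or 2 (adjusted p from 0.058 to 0.093, edgeR). OASL differed by 0.71 and was not called (adjusted p = 0.058, edgeR), but passed in 6 of 22 alternative fits. In siELMO1 against siNT, 3 were called higher and 0 lower (all genes: 16.7% and 17.8%). They were OAS1 at 1.02 (SE 0.097, adjusted p = 2.7e-07, edgeR), OAS3 at 1.86 (SE 0.094, adjusted p = 1.6e-10, edgeR) and OASL at 2.42 (SE 0.28, adjusted p = 2.4e-06, edgeR). For MX2 and RSAD2, the standard errors of these differences, 0.54 to 1.06, were set by the few counts at 0 h, and none was called.

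Within a library, the ratio of 2 members needs no scaling. At 24 h the ratio of OASL to OAS3 in CPM was 0.658, 0.641 and 0.732 in the Mock libraries, 0.202, 0.188 and 0.255 with siNT, and 0.541, 0.524 and 0.701 with siELMO1. The group means were 0.677 ± 0.048 in Mock, 0.215 ± 0.035 in siNT and 0.589 ± 0.098 in siELMO1 (SD, n = 3). The siNT range, 0.188 to 0.255, lay below all other libraries. The difference in log2 ratio was −1.66 in siNT against Mock and 1.45 in siELMO1 against siNT (exact two-sided permutation test, p = 0.10 each, the smallest that 3 against 3 allows; 0.15 adjusted over the 6 ratio tests). The design cannot reach the threshold of 0.05. The ratio of MX2 to MX1 was 30.5 ± 1.8 in Mock, 38.9 ± 6.5 in siNT and 45.6 ± 4.3 in siELMO1. The siELMO1 ratios, 42.3 to 50.5, lay above the Mock ratios, 28.5 to 31.9, with a log2 difference of 0.58 (exact permutation p = 0.10, adjusted 0.15). The siNT ratios, 35.1 to 46.4, also lay above the Mock ratios, with a log2 difference of 0.34 (exact permutation p = 0.10, adjusted 0.15). Between siELMO1 and siNT the log2 difference was 0.24 (exact permutation p = 0.30, adjusted 0.30).

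**Figure D4:**
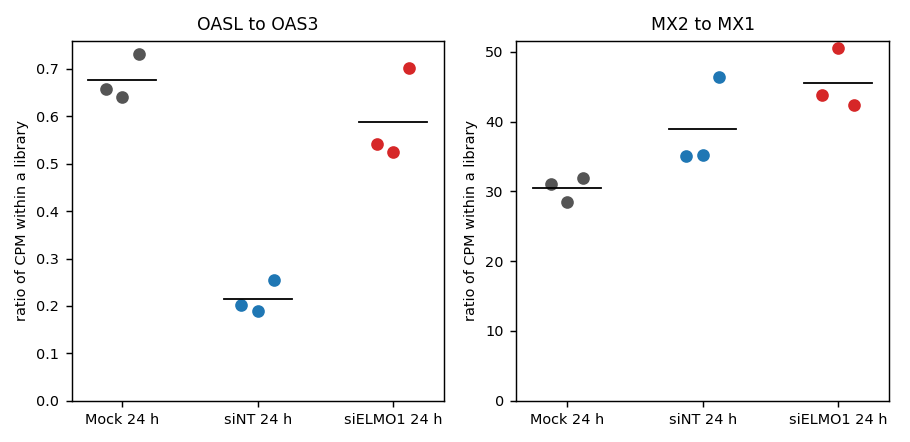
Ratio of CPM within each library at 24 h, OASL to OAS3 (left) and MX2 to MX1 (right), by transfection; points are libraries and bars are means of 3. The 3 siNT points of OASL to OAS3 lie between 0.188 and 0.255, below every Mock and siELMO1 point.

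The transcripts credited with the counts also differed with time for RSAD2 and OAS2. At 0 h RSAD2 counts were assigned to RSAD2-209, which begins at position 6865557, in 8 of the 9 libraries. The exception was siELMO1 replicate 2, whose 24 counts were assigned to RSAD2-201. At 24 h RSAD2-201, which begins at the downstream start (6877777), held 4969 to 32476 counts, 98.6% to 99.6% of the gene, and RSAD2-209 held 28 to 83. RSAD2-209 went from 37, 19 and 11 to 28, 32 and 44 counts in Mock, from 17, 8 and 8 to 42, 37 and 63 in siNT, and from 46, 0 and 15 to 83, 62 and 41 in siELMO1. Its counts overlapped between the times in Mock and siELMO1 and were higher at 24 h in all siNT libraries, with no test run. The RefSeq window at the downstream start is that of RSAD2-201; the other RefSeq window, with its start at 6865885, lies after the first base of RSAD2-209.

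OAS2-203, a protein-coding transcript of 2072 bases ending at 112988805, held 27.6% to 63.3% of OAS2 counts at 0 h and 1.10% to 6.54% at 24 h. Only its share was lower at 24 h: its counts were 157 to 269 at 0 h and 593 to 5729 at 24 h, with no test run. At 24 h most OAS2 counts went to the protein-coding OAS2-208 (median 32.8%), to OAS2-209, a nonsense-mediated decay transcript (27.3%), and to OAS2-213, a retained-intron transcript (25.2%). The division among similar transcripts differed widely between replicates, in OAS2 too, where OAS2-201 ranged from 1.86% to 43.6% of counts among the siELMO1 replicates at 0 h. OASL-206 held 50756 and 55823 counts in Mock replicates 2 and 3 at 24 h and 0 in every other library, and OAS3-220 ranged from 0 to 68.7% of OAS3 counts among the Mock replicates at 24 h. OASL-206, at 1801 bases, is shorter than OASL-201, at 3270 bases, so the TPM of OASL in Mock at 24 h depends on this division. In replicate 1, with 0 counts in OASL-206, OASL was at 963 TPM and still above OAS2 at 776 TPM.

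**Figure D5:**
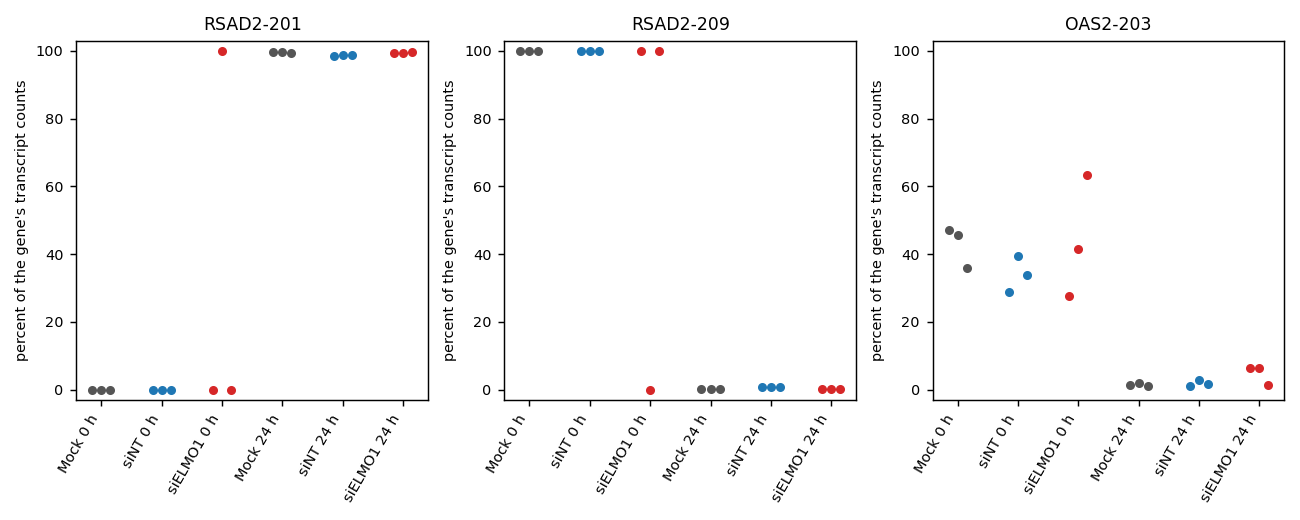
Percent of a gene's transcript counts held by RSAD2-201, RSAD2-209 and OAS2-203 in each of the 18 libraries, by condition; points are libraries. RSAD2-209 holds 100% in 8 libraries at 0 h and at most 0.834% at 24 h. The share of OAS2-203 falls from at least 27.6% to at most 6.54%, while its counts are higher at 24 h.

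Values of 2 other genes of the oligoadenylate pathway are given. ABCE1, a ribosome recycling factor also known as an inhibitor in this pathway, fell with poly(I:C) in each transfection, by 0.70, 0.67 and 0.41 on the log2 scale (adjusted p = 3.1e-09, 8.8e-09 and 4.0e-06, edgeR). PDE12, which degrades the oligoadenylates, was not called in any of the 3 (adjusted p = 0.71, 0.62 and 0.14, edgeR).

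Among 7 sensors and adaptors of double-stranded RNA, 6 were called higher in each transfection after poly(I:C), and MAVS was called lower in Mock alone. In siNT against Mock at 24 h 4 were called lower and 2 higher. RIGI differed by −0.96 on the log2 scale (adjusted p = 1.6e-06, edgeR), and IFIH1 differed by −0.62 (adjusted p = 5.2e-05, edgeR). EIF2AK2 (PKR) and MAVS were higher in siNT, by 0.16 and 0.49 (adjusted p = 0.042 and 5.7e-06, edgeR). Of the 7, 4 were called higher in siELMO1 than in siNT at 24 h and 0 lower. For this list and those below, the shares over all genes are those given above for each comparison.

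The interferon genes themselves were at 0 counts in the Mock and siNT libraries at 0 h. IFNB1 levels at 24 h were 23.1 ± 3.9 CPM for Mock, 1.68 ± 0.24 CPM for siNT and 7.65 ± 3.4 CPM for siELMO1. IFNB1 differed from Mock by −3.78 in siNT and −1.60 in siELMO1 (adjusted p = 4.9e-07 and 5.1e-04, edgeR), and IFNL1 by −3.62 and −1.49 (adjusted p = 9.5e-07 and 5.9e-04, edgeR). IFNLR1, the receptor subunit specific to the lambda interferons, held at most 6 counts in a library.

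Of 8 tested genes for interferon receptors and ISGF3, 7 were called higher after poly(I:C) in Mock, 5 in siNT and 7 in siELMO1. STAT2, a subunit of ISGF3, rose by 3.67, 2.96 and 2.99 in that order (largest adjusted p = 6.1e-15, edgeR). The interferon regulatory factors IRF1, IRF7, IRF2 and IRF3 were called higher in all 3 transfections, IRF7 by 4.99, 4.53 and 4.66 (largest adjusted p = 5.6e-16, edgeR). Of the 4 feedback inhibitors, 3 were called higher in Mock, 3 in siNT with SOCS3 lower, and 4 in siELMO1. USP18, which limits interferon receptor signalling, differed from Mock at 0 h by −1.25 in siNT and −1.12 in siELMO1 on the log2 scale (adjusted p = 1.7e-09 and 5.4e-09, edgeR). ISG15 levels at 24 h were 762 ± 37 CPM for Mock, 381 ± 66 CPM for siNT and 646 ± 48 CPM for siELMO1.

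Genes beside or related to the members were described too. Of 9 chromosomal neighbours 2 passed the filter. In Mock after poly(I:C), 1 of these was called higher and 1 lower. The lower was BACE2, at −0.25 on the log2 scale (adjusted p = 1.5e-04, edgeR). In siNT 1 was called higher and 0 lower, and in siELMO1 neither was called. CMPK2, which lies head to head with RSAD2 and is singled out after its values were seen, held 0 counts in every library at 0 h and at most 9 at 24 h, where RSAD2 held at least 5038. Whether these low counts reflect the cells or how the counts were made cannot be told apart from the matrices. Of 6 tested constitutive dynamin-superfamily genes, relatives of MX1 and MX2, 1 was called higher and 3 lower in Mock after poly(I:C). Their median log2 fold change was −0.26. DNM2 was called higher, by 0.11 (adjusted p = 0.031, edgeR), and DNM1L differed by 0.010 (adjusted p = 0.85, edgeR).

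Over the 18 libraries, the 5 genes whose pattern was most like the mean standardized pattern of the 7 were IFIH1, ISG15, IFI35, HERC6 and SLC15A3 among 12869 genes compared. Their Pearson r on log2(CPM + 0.5) was 0.999, 0.999, 0.999, 0.998 and 0.998. The r of the members themselves with that mean ran from 0.979 for MX1 to 0.996 for MX2. The points share the split between 0 h and 24 h, so r describes mostly that split. HERC6 levels at 24 h were 193 ± 5.0 CPM for Mock, 128 ± 8.8 CPM for siNT and 163 ± 3.9 CPM for siELMO1.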

How the data were processed

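RNA was sequenced from 18 EA.hy926 libraries, 3 per condition. Per the study's methods, the authors aligned reads with STAR to GRCh38, estimated transcripts with StringTie against GENCODE annotation, and deposited gene and transcript matrices of estimated counts (expected counts, whole numbers, not scaled for depth or length). Whether counting used strand is not given in the sources used here. The authors' limma model with a random effect was not repeated; limma-voom without it was an alternative.

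Following the study's filter, genes were kept from 100 counts in total and a maximum of 1 CPM upwards (15167). All 18 libraries were fitted in a single edgeR 4.0.16 model (R 4.3.3) with TMM factors (0.958 to 1.06) and the quasi-likelihood test, with Benjamini-Hochberg adjustment over all genes tested; genes were called at an adjusted p under 0.05. Intervals are 95%. The script was tested on simulated data. TPM used the transcript matrix and GENCODE lengths. The ratio tests were exact permutation tests over libraries. Library totals were 40.4 to 73.9 M counts.

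The members, lists and named genes were chosen with earlier results of these data known. Named were the 7 members, ELMO1, up to 4 genes per list with the highest mean CPM at 24 h, except some not reported here, and the 5 most alike genes; CMPK2, EMCN, CDH1, IFNLR1 and the leukocyte markers are list genes named besides. Replicate numbers were not taken as pairs, since in no pair of conditions did all 3 same-numbered residual correlations exceed 0.1. This rule cannot exclude an effect shared under a single replicate number. Among the 24 h groups the correlations were 0.128, 0.182 and 0.181 for replicate 3 and 0.119, 0.106 and 0.094 for replicate 2. For replicate 1 they were 0.069, −0.046 and 0.026. Replicate 3 was also the highest 24 h library of each transfection in all 7 members. No replicate libraries were alike within counting noise. Alternatives were DESeq2 1.42.0, limma-voom (limma 3.58.1), other scalings and filters, the libraries compared alone, a replicate block, a fold change over 2, and each library left out.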

Additional observations from a re-analysis of the deposited data

Results flagged for a closer look

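The change from 0 h to 24 h of poly(I:C) differed between transfections, by a test of the difference itself in the edgeR fit, for 4 of the 7 genes in siNT against Mock. The differences in log2 fold change were −1.32 for OAS1, −0.90 for OAS2, −0.93 for OAS3 and −1.71 for OASL. Each stayed past the threshold in all 21 alternative fits. With a fold change over 2 also required, OAS2 and OAS3 did not pass.

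Between siELMO1 and Mock, the change differed by −0.30 for OAS1, −0.82 for OAS2 and 0.93 for OAS3, and between siELMO1 and siNT by 1.02 for OAS1, 1.86 for OAS3 and 2.42 for OASL. OAS1 between siELMO1 and Mock passed in 12 of 22 alternative fits, and each of the others in all 22. With a fold change over 2 also required, OAS1, OAS2 and OAS3 between siELMO1 and Mock did not pass, and those between siELMO1 and siNT did. No test for a stray library within a group was made, since each group had 3.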

How the results depend on the processing

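Of 84 results for a gene in a comparison, 44 kept their direction and their side of the threshold in every alternative, and 8 turned direction in at least 1; in none of the 8 was the value called. Leaving out siELMO1 0 h replicates 2 and 3 together was chosen after seeing the data; it leaves a lone library assumed to vary like the other groups. The causes were not tested.

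Shares over all genes were computed for the main fit alone, so the counts under other settings have no such share beside them. Requiring a fold change over 2 left, in siNT against Mock, 1 gene higher and 0 lower at 0 h, 2 lower at 24 h and 2 lower for the response. In siELMO1 against Mock it left 0 higher at 0 h, 0 higher and 0 lower at 24 h, and 0 higher and 0 lower for the response. In siELMO1 against siNT it left 1 lower at 0 h and 2 higher at 24 h. With only the libraries compared, 2 genes were lower in siNT against Mock and 0 higher in siELMO1 against siNT at 0 h, 4 were lower in siELMO1 against Mock at 24 h, and 2 had a higher response in siELMO1 than in Mock. Limma-voom gave 0 higher in siELMO1 against siNT at 0 h and 4 lower in siELMO1 against Mock at 24 h. DESeq2 gave 0 higher in siELMO1 against Mock at 24 h and 2 with a higher response. Library totals without TMM factors, which shifted the median of all genes by −0.12 for poly(I:C) in Mock, gave 2 lower in siELMO1 against Mock at 24 h, and 2 higher and 1 lower for the response; no filter on low counts gave 1 lower for the response. Without siELMO1 0 h replicates 2 and 3, 0 were higher in siELMO1 against siNT at 0 h and 1 had a lower response in siELMO1 than in Mock.

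With replicate number as a block, 2 genes were lower in siELMO1 against Mock at 24 h and 2 had a higher response in siELMO1 than in Mock. The block brought OAS1 (−0.16 in siELMO1 against Mock and 0.15 against siNT at 24 h) and OASL (response 0.70) past the threshold and changed no other call of the members. Whether same-numbered libraries were handled together is not given in the sources used here.

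With each library left out, the count higher in siELMO1 against siNT ran from 0 to 3 at 0 h and from 3 to 6 at 24 h. In siELMO1 against Mock at 24 h it ran from 0 to 1 higher and 0 to 3 lower, and for the response from 1 to 2 higher and 1 to 2 lower. Values that turned direction ran, for MX1, from −0.19 to 0.37 in siELMO1 against siNT at 0 h. For MX2 in siELMO1 against Mock at 24 h they ran from −0.13 to 0.022. For the response they ran, in siNT against Mock, from −0.18 to 0.23 for MX1 and from −0.50 to 4.63 for MX2. In siELMO1 against Mock they ran from −0.085 to 0.46 for MX1 and from −0.85 to 0.18 for RSAD2. In siELMO1 against siNT they ran from −0.013 to 0.22 for OAS2 and from −0.064 to 0.49 for MX1. With library totals the MX1 response in siNT against Mock was 0.052, and without siELMO1 0 h replicates 2 and 3 it was −0.18 in siELMO1 against Mock and −0.17 against siNT.

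On TPM, the log2 ratio of OASL to OAS3 differed by −1.95 in siNT and −0.49 in siELMO1 from Mock. As shares of TPM, RSAD2-201 held 98.2% at 24 h, and OAS2-203 57.2% at 0 h and 4.24% at 24 h. At 0 h the few counts of MX1, MX2 and RSAD2 limit their comparisons.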
